A study of Mus musculus with 34 samples.

Results

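The comparison described here is that of skeletal muscle from mice with a muscle-specific deletion of the IGF-1 receptor gene Igf1r, called MIGF1RKO, with muscle from mice that carry the floxed Igf1r allele without the deletion, called IGFRlox. All libraries that the labels assign to these groups were taken, 5 MIGF1RKO and 4 IGFRlox, which are 9 of the 34 libraries in the series. Each library holds total RNA from powdered quadriceps and gastrocnemius of male mice, mixed before extraction, and the library kit kept strand. The p-values measure the spread between libraries within groups, estimated over all 34 libraries of the series. The labels do not say whether libraries of 1 group come from separate mice, so that spread may be technical. Both groups come from a colony of their own, in which floxed littermates served as controls, on a background mixed from C57Blk6, C57Blk6J and 129. That background can carry mutations of Nnt, a mitochondrial enzyme, and the genotype of Nnt in these groups was not given in the sources used here. Acta1-Cre, active in skeletal muscle fibers, is named for the other knockout lines, and the driver of the deletion in MIGF1RKO and the age of the mice were not given in the sources used here. The labels do not tie any knockout mouse to a littermate, so replicate numbers name libraries and pair nothing.

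The IGF-1 receptor is a tyrosine kinase of the cell surface that binds IGF-1 and IGF-2 with high affinity and insulin weakly. Ligand binding leads to phosphorylation of the IRS and Shc adaptors, which start the PI3K, Akt and mTOR branch and the Ras and MAPK branch. Akt also keeps the FoxO transcription factors out of the nucleus, where they drive genes of protein breakdown. In muscle this pathway is known for fiber growth, and the closely related insulin receptor uses the same adaptors and forms hybrids with it.

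Values are in CPM, which are counts set to a common library total after edgeR's TMM scaling, and changes are log2 changes of MIGF1RKO minus IGFRlox with their standard error (SE). A gene is called where edgeR's quasi-likelihood test gave a Benjamini-Hochberg adjusted p under 0.05 over 13646 tested genes. Total counts were 3295702 to 5084892 in MIGF1RKO and 3727904 to 6050260 in IGFRlox, so weakly expressed genes rest on few counts. In the check of the tissue, 9 of 10 listed markers of muscle fibers summed to 138912 to 163657 CPM in MIGF1RKO and 135584 to 180690 CPM in IGFRlox. The marker left out, Pygm, had 7 counts over the 9 libraries and was not tested, and the reason for its low count was not examined. Xist had 1 count over the 9 libraries, and the Y-linked Ddx3y had 6116. Nnt had 133 ± 23.0 CPM against 149.7 ± 22.8 CPM (adjusted p = 0.958). By correlation of log2 CPM across genes, which are not independent replicates, each MIGF1RKO library lay closest to another MIGF1RKO library among the 9. IGFRlox 3, however, lay closest to MIGF1RKO 4 (r = 0.977). In whole muscle, fewer cells of a type and less RNA per cell cannot be told apart.

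The targeted gene was the first check of the labels. Igf1r (ENSMUSG00000005533, chromosome 7, 67952827 to 68233668, GRCm38) had 11.2, 10.8, 7.57, 9.92 and 9.67 CPM in MIGF1RKO 1 to 5 and 13.5, 16.9, 20.4 and 15.4 CPM in IGFRlox 1 to 4. The groups did not overlap, and the highest knockout value also lay below all 12 floxed libraries of the series. Even so, Igf1r was not called, at a log2 change of -0.75 ± 0.21 (adjusted p = 0.103). It was called with the compared groups only (adjusted p = 0.0486) and against the 12 floxed libraries of all lines (adjusted p = 0.00912). Within the 3 runs of consecutive library numbers that held a library of each group, the log2 ratio was -0.26, -0.74 and -1.04. The deleted exons are not given, so whole-gene counts can retain reads from the rest of the gene, and a muscle-specific deletion leaves the gene intact in other cells of the tissue.

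Insr, which encodes the insulin receptor (ENSMUSG00000005534, chromosome 8, 3122061 to 3279617), had 171, 174, 199, 204 and 208 CPM in MIGF1RKO and 175, 255, 233 and 196 CPM in IGFRlox. The groups overlapped, and the change was -0.17 ± 0.14 (adjusted p = 0.78). With all 12 floxed libraries as control the sign of that change turned (0.093). Mean Insr was 215 CPM in IGFRlox and 152 to 174 CPM in the other floxed groups.

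**Figure D1:**
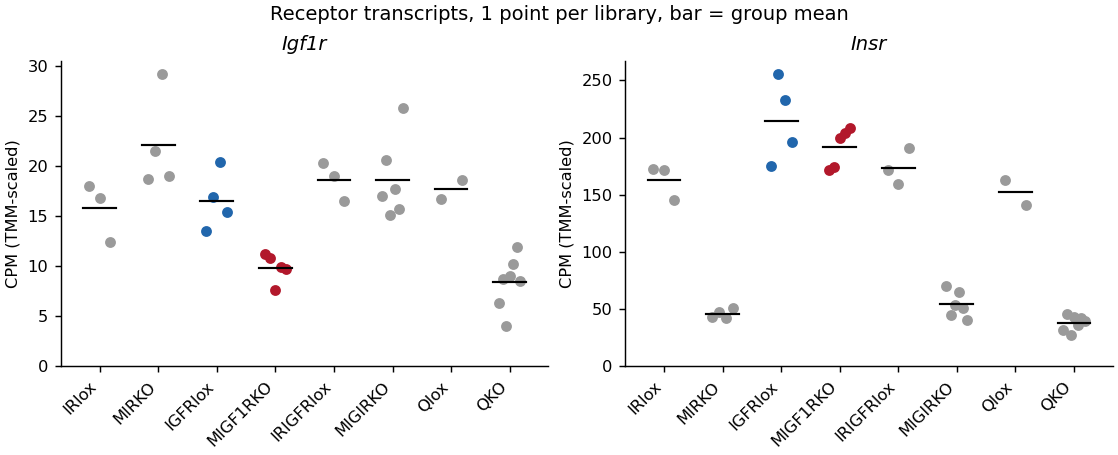
CPM (y axis) of Igf1r (left) and Insr (right) in all 34 libraries by group (x axis), with 1 point per library and a bar at the group mean. The MIGF1RKO libraries (red) lie at 7.57 to 11.2 CPM for Igf1r, below the IGFRlox libraries (blue) at 13.5 to 20.4 CPM, while their Insr values overlap.

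Few genes were called. Of the 13646 tested genes, 84 were called (0.616%), 36 of them higher in MIGF1RKO (0.264%) and 48 lower (0.352%). The count was 164 without the libraries labelled MIRKO 4 and MIGIRKO 6, which belong to other knockouts, and 176 with the compared groups only. It was 15 with only the 3 library runs that hold both groups, so 84 is not a count of all genes that changed. Among the 84 called genes 58 changed at least 2-fold, 28 higher and 30 lower, and 78 were protein coding. The median change was 1.31 for the called-higher genes and -1.14 for the called-lower genes, against 0.00 over all tested genes. In 35 of the 36 called-higher genes all 5 knockout libraries lay above all 4 controls, as did 2.45% of all tested genes. In 44 of the 48 called-lower genes they lay below, as did 2.69% of all tested genes. The genes were called on these same libraries, so the separation is no further support for the calls. Against all 12 floxed libraries, 43 of the 84 called genes had 5 knockout values outside the floxed range on 1 side, as did 1.28% of all tested genes.

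The number of calls varied when 1 library was left out, and each such fit also has fewer libraries to test with. It was 30 without IGFRlox 2, 34 without MIGF1RKO 3, 41 without IGFRlox 4, 45 without MIGF1RKO 1 and 47 without MIGF1RKO 2. It was 63 without IGFRlox 3, 68 without MIGF1RKO 5, 75 without MIGF1RKO 4 and 81 without IGFRlox 1. In all, 26 genes kept their call whichever of the 9 libraries was left out, while the other called genes lost it without at least 1. No called gene changed sign in any of these fits. Within the 3 runs that held both groups, all 84 called genes had the direction of the fit in each run, against 30.0% of all tested genes, although these runs use libraries of the fit itself. With those 3 runs alone and run as a block, 15 genes were called, 10 of them among the 84 (Gm10851, Gm37975, Chrna1, Ryr3, Amy1, Slc30a2, Tspan13, Ripor2, Mss51 and Ostn), and 73 of the 83 called genes with a value there lost their call. With library totals in place of TMM scaling, 38 genes were called higher and 28 lower.

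**Figure D2:**
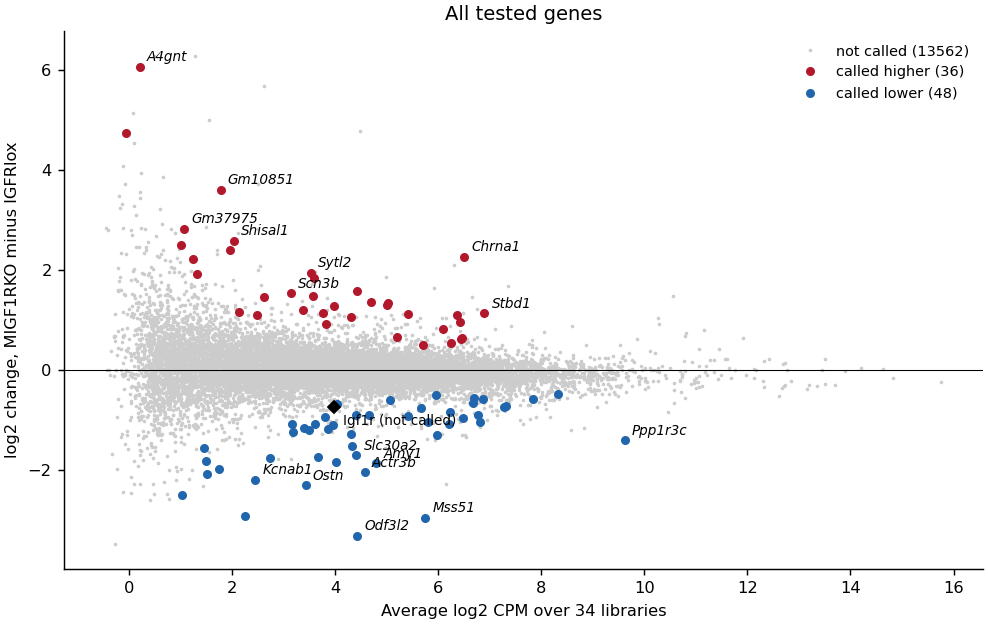
log2 change of MIGF1RKO minus IGFRlox (y axis) against average log2 CPM (x axis) for all tested genes. The 36 genes called higher are red, the 48 called lower are blue, and Igf1r (black diamond) is not called. The change of A4gnt depends on the prior count, since all 4 controls have 0 counts.

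The largest falls among called genes were those of Odf3l2 and Mss51, and both kept their call whichever library was left out. Mss51 encodes a zinc finger protein of muscle mitochondria (ENSMUSG00000021815, chromosome 14, 20482867 to 20496901). It had 7.91, 7.81, 5.15, 9.67 and 7.91 CPM in MIGF1RKO and 43.2, 77.1, 45.4 and 74.2 CPM in IGFRlox. The groups lay far apart, with all knockout libraries below 10 CPM and all controls above 43 CPM. Mss51 was 7.73-fold lower (log2 change -2.95 ± 0.45, adjusted p = 0.000962). Mss51 was placed in a list of 27 myostatin and BMP pathway genes, of which 25 were tested and it alone was called. Myostatin itself, Mstn, which restrains muscle growth, had 42.4, 42.7, 19.7, 37.5 and 45.7 CPM against 48.0, 84.7, 112 and 89.2 CPM, without overlap and without a call (-1.15 ± 0.35, adjusted p = 0.147). Its relative Gdf11 likewise had a change of -1.07 ± 0.30 without overlap (adjusted p = 0.105). Mstn and Gdf11 are named here after their values were seen, and the median change of the list was -0.11.

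Secreted factors of muscle were the next group. Ostn encodes osteocrin, or musclin, a peptide made by muscle that binds the clearance receptor of natriuretic peptides (ENSMUSG00000052276, chromosome 16, 27307489 to 27351212). It had 10.5, 3.59, 2.73, 5.95 and 2.93 CPM in MIGF1RKO and 17.1, 25.2, 29.5 and 29.9 CPM in IGFRlox, so every knockout library was below every control. Ostn was 4.92-fold lower (-2.30 ± 0.37, adjusted p = 0.00102). Dkk3, a secreted protein of the Dickkopf family, fell from 17.4, 15.7, 19.1 and 18.5 CPM in IGFRlox to 10.2, 5.07, 6.97, 8.43 and 7.91 CPM in MIGF1RKO (-1.20 ± 0.23, adjusted p = 0.00677). These were the only called members of 18 tested myokines and secreted muscle factors, whose median change was -0.10. Outside that list, 2 ligands of the EGF receptor fell, Egf (28.8 ± 5.46 CPM against 54.5 ± 8.99 CPM, -0.92 ± 0.20, adjusted p = 0.0264) and Hbegf (11.8 ± 1.52 CPM against 22.2 ± 4.45 CPM, -0.90 ± 0.21, adjusted p = 0.0321). The call of Egf was lost when any 1 library other than MIGF1RKO 4, MIGF1RKO 5, IGFRlox 1 or IGFRlox 3 was left out (highest adjusted p = 0.138), and that of Hbegf was lost when any 1 library other than IGFRlox 2 was left out (highest adjusted p = 0.14). Col9a1, a collagen chain, and Npnt, a matrix protein called nephronectin, also fell (-2.49 and -1.07), with calls lost without any of 5 and 7 of the 9 libraries.

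The IGF pathway itself held no called gene in any of 7 lists. With 0.616% of all tested genes called, lists of this size would often hold none, so their lack of calls is not a result about the pathway. Among its ligands, Igf1 and Igf2 were tested and not called, with Igf2 at 66.6, 70.5, 109, 42.7 and 85.6 CPM in MIGF1RKO and 20.1, 21.9, 26.1 and 25.4 CPM in IGFRlox. All 5 knockout values of Igf2 lay above the controls, and the gene was not called (1.67 ± 0.65, adjusted p = 0.323). None of 6 tested IGF-binding proteins was called (median -0.13), nor any of 5 receptors of the family (median -0.17). Sorl1, a sorting receptor that was listed with them, had a change of -0.48 ± 0.13 (adjusted p = 0.0892) without overlap. None of 16 receptor adaptors was called (median -0.02). Grb14, which binds and inhibits both receptors, had 16.0 ± 3.47 CPM against 24.1 ± 1.58 CPM (-0.59 ± 0.27, adjusted p = 0.423).

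Downstream, none of 39 genes of PI3K, Akt and mTOR was called, and their median change was -0.01. Tbc1d4, the Akt substrate that controls delivery of glucose transporters to the surface, came nearest. It had 177, 150.2, 139, 128 and 115 CPM in MIGF1RKO and 73.1, 83.0, 83.4 and 92.3 CPM in IGFRlox, and although the groups did not overlap it was not called (0.77 ± 0.21, adjusted p = 0.0788). Tbc1d4 was called by the DESeq2 test (adjusted p = 0.0258) and, with edgeR, by the compared groups only (adjusted p = 0.0102) and against the 12 floxed libraries of all lines (adjusted p = 0.000297). None of 21 Ras and MAPK genes was called (median -0.06), nor any of 27 FoxO factors and atrophy genes (median -0.02). Foxo1 had 39.6, 61.5, 37.0, 38.7 and 38.4 CPM in MIGF1RKO and 74.0, 69.7, 124 and 70.4 CPM in IGFRlox, a change of -0.97 ± 0.32 (adjusted p = 0.2) with every knockout library below every control. Of the called genes outside these lists, Shc2, an adaptor of the Shc family, fell (4.64 ± 0.678 CPM against 9.83 ± 1.73 CPM, -1.07 ± 0.25, adjusted p = 0.0315). Rapgef1, an exchange factor that acts downstream of the Crk adaptors, fell slightly (268 ± 18.9 CPM against 374 ± 16.8 CPM, -0.48 ± 0.11, adjusted p = 0.0322). The call of Shc2 was lost when any 1 library other than MIGF1RKO 4, MIGF1RKO 5 or IGFRlox 3 was left out (highest adjusted p = 0.11), and that of Rapgef1 was lost when any 1 library other than MIGF1RKO 5 was left out (highest adjusted p = 0.128).

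At the neuromuscular junction 1 subunit of the acetylcholine receptor was called higher, and the kinase that clusters the receptor was called lower, both against IGFRlox. Chrna1 encodes the alpha subunit of the muscle acetylcholine receptor, which is known to rise outside the synapse when a muscle loses its nerve (ENSMUSG00000027107, chromosome 2, 73563215 to 73580338). It had 107, 93.1, 172, 47.6 and 89.7 CPM in MIGF1RKO and 19.5, 19.7, 20.4 and 24.9 CPM in IGFRlox. The 4 controls were close together, and all 5 knockouts lay above them and above all other floxed libraries. Chrna1 rose 4.8-fold (2.26 ± 0.54, adjusted p = 0.0474), with MIGF1RKO 3 the highest and MIGF1RKO 4 the lowest of the knockout libraries. That call was lost when any 1 library other than MIGF1RKO 4 was left out (highest adjusted p = 0.182). It was also lost with limma-voom, no filter, a CPM filter, library totals and runs as a block (adjusted p = 0.0512 to 0.108), although the change stayed between 1.99 and 2.44 in all settings tried.

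Musk, the receptor kinase that organises the postsynaptic membrane (ENSMUSG00000057280, chromosome 4, 58285960 to 58374303), had 19.4, 23.4, 26.7, 30.8 and 34.9 CPM in MIGF1RKO and 38.1, 46.6, 70.7 and 45.5 CPM in IGFRlox. Every knockout library lay below every control of the colony, and Musk fell (-0.90 ± 0.21, adjusted p = 0.0333). The call was lost when any 1 library other than MIGF1RKO 4, MIGF1RKO 5 or IGFRlox 1 was left out (highest adjusted p = 0.176), and the change was -0.15 with all 12 floxed libraries as control. Mean Musk was 50.2 CPM in IGFRlox, but 16.7 CPM in IRlox, 27.2 CPM in IRIGFRlox and 29.7 CPM in Qlox. The MIGF1RKO mean of 27.0 CPM thus lay within the range of the other floxed groups. Chrna1 and Musk were the called members of 19 tested junction genes, whose median change was 0.18. The other receptor subunits, named here after their values were seen, were not called. Chrnb1 had a change of 0.69 ± 0.25 (adjusted p = 0.241), Chrnd of 1.12 ± 0.47 (adjusted p = 0.371), Chrne of 0.43 ± 0.29 (adjusted p = 0.684) and the embryonic Chrng of 2.82 ± 1.28 (adjusted p = 0.42). Of 20 genes of denervation and embryonic muscle, 17 had a change above 0 and none was called, with a median of 0.66. The 2 with the smallest p were Cdkn1c, an inhibitor of the cell cycle (1.04 ± 0.33, adjusted p = 0.174), and Csrp3, a Z-disc protein (-1.29 ± 0.46, adjusted p = 0.244). Markers of Schwann cells and nerve summed to 211 to 475 CPM in MIGF1RKO and 311 to 641 CPM in IGFRlox, with 8 of 9 changes below 0 and none called. Their part in the junction values was not tested.

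The promoters of Chrna1 and Musk are printed because these genes were called in opposite directions against IGFRlox. Both carry the E-box CAGCTG, a motif bound by myogenic factors, close to the start. Each run is the 120 bases before the start in RefSeq, 5′ to 3′ on the gene's strand, on GRCm38.p6, with CAGCTG in capitals. The RefSeq start is 73580338 for Chrna1 and 58285962 for Musk, and for Musk the GENCODE gene given above begins just before it, at 58285960. Chrna1 lies on the minus strand (chr2:73580339-73580458) and Musk on the plus strand (chr4:58285842-58285961).
Chrna1: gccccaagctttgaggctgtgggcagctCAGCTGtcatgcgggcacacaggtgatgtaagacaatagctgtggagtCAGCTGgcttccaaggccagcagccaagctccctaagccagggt
Musk: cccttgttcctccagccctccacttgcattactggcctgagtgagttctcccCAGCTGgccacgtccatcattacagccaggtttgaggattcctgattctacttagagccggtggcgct
CAGCTG begins 92 and 44 bases before the RefSeq start of Chrna1 and 68 bases before that of Musk. In the full window of 250 bases before to 50 bases after the start, RefSeq entries matched 22 of the 36 called-higher genes and 32 of the 48 called-lower genes. CAGCTG, which reads the same on both strands, was in 33.3% of 30 promoters of called-higher genes, in 21.1% of 57 promoters of called-lower genes, in 15.9% of 13172 promoters of tested genes and in 16.3% of all 32851 promoters. The wider motif CANNTG, which includes it, was in 60.0%, 70.2%, 64.4% and 72.3%. The FoxO-type motif TGTTTAC, searched on both strands, was in 0 of 30, in 1 of 57 (Egf), in 2.57% of the promoters of tested genes and in 3.65% of all. A MEF2-type motif, also searched on both strands, was in 0 of 30, in 0 of 57, in 0.175% of the promoters of tested genes and in 0.164% of all. These matches describe letters in a window and are not binding sites.

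Genes of electrical excitation and calcium release made up another group. Ryr3, a calcium release channel related to the main channel of muscle, had 23.7, 15.2, 33.3, 23.8 and 25.2 CPM in MIGF1RKO and 3.00, 5.71, 9.64 and 7.90 CPM in IGFRlox. It rose 3.58-fold without overlap (1.84 ± 0.43, adjusted p = 0.0322). Cacnb4, a beta subunit of voltage-gated calcium channels, rose from 0.899, 1.19, 0.893 and 1.45 CPM to 6.64, 5.07, 8.79, 2.73 and 6.74 CPM (2.39 ± 0.52, adjusted p = 0.0229). These were the 2 called members of 33 tested calcium genes, whose median change was -0.09. The call of Ryr3 was lost when any 1 library other than MIGF1RKO 2 or IGFRlox 3 was left out (highest adjusted p = 0.141), and that of Cacnb4 was lost when any 1 library other than MIGF1RKO 2, MIGF1RKO 4 or MIGF1RKO 5 was left out (highest adjusted p = 0.0863). Ryr3 overlaps Aven on the other strand, and the strand setting of the counting was not given in the sources used here.

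Kcnab1, a beta subunit of voltage-gated potassium channels (ENSMUSG00000027827, chromosome 3, 65109384 to 65378223), had 3.32, 1.27, 1.21, 2.23 and 2.93 CPM in MIGF1RKO and 5.99, 11.7, 11.8 and 10.6 CPM in IGFRlox. It was 4.59-fold lower (-2.20 ± 0.35, adjusted p = 0.00102) and the 1 called member of 32 tested ion channel genes, whose median change was -0.14. Scn3b, a beta subunit of sodium channels, had 7.40, 10.3, 11.2, 10.4 and 12.0 CPM against 3.00, 4.28, 4.29 and 2.49 CPM and rose (1.53 ± 0.29, adjusted p = 0.00651). Atp1b4, a muscle protein of the sodium pump beta family, rose 2.96-fold (1.57 ± 0.35, adjusted p = 0.0264). Its call was lost when any 1 library other than MIGF1RKO 1, MIGF1RKO 2, MIGF1RKO 4 or MIGF1RKO 5 was left out (highest adjusted p = 0.102). Kcnab1 and Scn3b kept their calls whichever library was left out, with a highest adjusted p of 0.00723 and 0.0463. Rgs2, which shuts off G protein signals, rose (1.28), and the cyclic AMP phosphodiesterases Pde7a (-0.96) and Pde8a (-0.68) fell, with calls lost without any of 5, 6 and 6 of the 9 libraries.

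Fuel metabolism showed a few called genes in lists whose medians lay between -0.25 and 0.08. Ppp1r3c, which brings protein phosphatase 1 to glycogen, had 452, 565, 244, 418 and 429 CPM in MIGF1RKO and 827, 829.5, 1680.3 and 1125 CPM in IGFRlox. It was 2.65-fold lower (-1.40 ± 0.34, adjusted p = 0.0477). Stbd1, which tethers glycogen to membranes, had 155, 157, 172, 101 and 133 CPM against 53.7, 77.1, 65.4 and 66.5 CPM and was 2.19-fold higher (1.13 ± 0.26, adjusted p = 0.0291). Both groups of values were free of overlap, and these were the 2 called members of 19 tested glycogen genes (median -0.10). The call of Ppp1r3c was lost when any 1 library other than IGFRlox 1 was left out (highest adjusted p = 0.172), that of Stbd1 was lost when any 1 library other than MIGF1RKO 4 or MIGF1RKO 5 was left out (highest adjusted p = 0.102), and both were lost with runs as a block. Amy1, an amylase that cuts starch and glycogen, fell 3.64-fold, from 54.5, 93.7, 42.7 and 53.0 CPM to 17.6, 11.6, 7.27, 27.3 and 19.6 CPM (-1.86 ± 0.36, adjusted p = 0.00677). Its call was lost without IGFRlox 2 (adjusted p = 0.062). Amy1 has close paralogs and overlaps Rnpc3, so its counts are uncertain.

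Slc2a3 encodes the glucose transporter GLUT3 and was the 1 called member of 26 genes of glucose uptake and glycolysis (median -0.25). It had 9.96, 9.72, 5.76, 9.67 and 8.21 CPM in MIGF1RKO and 22.2, 25.0, 17.3 and 15.0 CPM in IGFRlox, without overlap (-1.18 ± 0.22, adjusted p = 0.00541). Scd2, a fatty acid desaturase, rose (96.4 ± 20.2 CPM against 54.4 ± 6.96 CPM, 0.83 ± 0.19, adjusted p = 0.0291) and was the 1 called member of 37 lipid synthesis genes (median -0.08). For Scd2 the call was lost when any 1 library other than MIGF1RKO 1, MIGF1RKO 2, MIGF1RKO 4 or IGFRlox 1 was left out (highest adjusted p = 0.126). None of 34 fatty acid oxidation genes (median -0.01), 24 pyruvate and TCA cycle genes (-0.02), 36 complex I genes (-0.02), 43 genes of complexes II to V (-0.02) or 13 mRNAs of the mitochondrial genome (0.08) was called. Among called genes of mitochondria outside those lists, Ak4, an adenylate kinase, rose (1.19), with a call lost without any of 6 of the 9 libraries. Slc25a30, a carrier of the inner membrane, fell (-1.53, adjusted p = 0.00541), with 8.42, 12.7, 20.0, 16.4 and 19.1 CPM in MIGF1RKO and 17.4, 59.0, 65.5 and 32.4 CPM in IGFRlox. Its values overlapped, and with all 12 floxed libraries as control its change was -0.57 and not called.

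Polyamine and transport genes came next. Odc1, ornithine decarboxylase, the first enzyme of polyamine synthesis, had 58.2, 82.6, 55.7, 99.2 and 98.5 CPM in MIGF1RKO and 166, 152, 199 and 129 CPM in IGFRlox. It was 2.05-fold lower without overlap (-1.04 ± 0.22, adjusted p = 0.0225) and the 1 called member of 13 tested polyamine genes (median -0.18). Its call was lost without MIGF1RKO 1, MIGF1RKO 3, IGFRlox 2 or IGFRlox 3 (highest adjusted p = 0.0933). The polyamine genes Amd1 (-1.20 ± 0.46, adjusted p = 0.295) and Smox (-0.94 ± 0.41, adjusted p = 0.399), named here after their values were seen, had no overlap and no call. Slc38a4, an amino acid transporter, fell (137 ± 34.1 CPM against 229 ± 22.6 CPM, -0.74 ± 0.18, adjusted p = 0.0452) as the 1 called member of 14 amino acid transporters (median -0.08), and its call was lost when any 1 library other than MIGF1RKO 5 was left out (highest adjusted p = 0.172). The zinc transporter Slc30a2 (ENSMUSG00000028836, chromosome 4, 134343181 to 134354484) had 13.8, 9.93, 8.48, 19.1 and 15.5 CPM in MIGF1RKO and 33.6, 47.8, 53.4 and 39.7 CPM in IGFRlox. It was 3.27-fold lower (-1.71 ± 0.29, adjusted p = 0.00164) and kept its call in every setting tried. Aldh1a1, an enzyme of retinoic acid synthesis (-0.90), and Abcg2, an efflux pump (-0.59), also fell, with calls lost without any of 7 and 5 of the 9 libraries.

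Several called genes outside the lists are known for roles in the cytoskeleton or in membrane traffic. Sytl2, an effector of Rab27 in vesicle transport (ENSMUSG00000030616, chromosome 7, 90302252 to 90410719), had 20.9, 15.4, 20.0, 12.4 and 14.9 CPM in MIGF1RKO and 4.20, 3.81, 4.29 and 4.99 CPM in IGFRlox. It rose 3.84-fold (1.94 ± 0.27, adjusted p = 0.000217), and its highest adjusted p with a library left out was 0.00297. Ripor2, a protein of cell polarity, had 2.30, 4.65, 6.97, 8.43 and 5.57 CPM against 18.3, 13.1, 23.4 and 19.1 CPM and was 3.33-fold lower (-1.73 ± 0.24, adjusted p = 0.000217). Odf3l2, named for its likeness to a protein of the sperm tail (ENSMUSG00000035963, chromosome 10, 79639526 to 79645738), had 2.30, 4.01, 2.12, 2.23 and 2.64 CPM against 25.2, 18.1, 46.3 and 18.1 CPM and showed the largest fall of all called genes (9.91-fold, -3.31 ± 0.50, adjusted p = 0.000962). Sorbs2, an adaptor at the Z-disc, fell from 84.2, 89.9, 131 and 119.7 CPM in IGFRlox to 39.1, 42.2, 28.5, 50.6 and 54.2 CPM in MIGF1RKO (-1.31 ± 0.21, adjusted p = 0.0011). The antisense gene Sorbs2os was also called lower (-2.09), and reads of the pair cannot be told apart without the strand setting. The kinesin Kif3c fell (46.1 ± 9.79 CPM against 94.5 ± 3.18 CPM, -1.03 ± 0.18, adjusted p = 0.00164) and the tetraspanin Tspan13 rose (42.1 ± 13.1 CPM against 16.5 ± 3.07 CPM, 1.34 ± 0.26, adjusted p = 0.00677), and neither lost its call to the loss of a library. Actr3b, a subunit related to Arp3, was 4.13-fold lower (-2.05 ± 0.40, adjusted p = 0.00831), with 9.70, 13.3, 6.67, 20.1 and 21.7 CPM against 46.5, 97.3, 46.6 and 46.5 CPM. Its call was lost without IGFRlox 2 (adjusted p = 0.0685).

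The rest of the called-lower genes had varied known roles. Lhpp, a phosphatase of phosphohistidine, had 10.2, 9.50, 9.09, 16.4 and 13.5 CPM in MIGF1RKO and 15.6, 105, 19.8 and 27.8 CPM in IGFRlox (-1.84 ± 0.35, adjusted p = 0.00623). IGFRlox 2 stood far above the other controls, and the call was lost without IGFRlox 2 (adjusted p = 0.114). It was also lost with the compared groups only and with all 12 floxed libraries as control. Sorcs1, a sorting receptor, had 1.53, 0.422, 1.51, 0.496 and 3.22 CPM against 5.99, 4.04, 5.54 and 6.44 CPM (-1.98 ± 0.38, adjusted p = 0.00623) and kept its call whichever library was left out. Snph, which anchors mitochondria to microtubules, was 3.52-fold lower (1.04 ± 0.544 CPM against 3.72 ± 0.67 CPM, adjusted p = 0.0321). Cntnap2, an adhesion protein of the neurexin family, was 3.38-fold lower (4.16 ± 1.94 CPM against 14.4 ± 6.27 CPM, adjusted p = 0.0345). Ctnna3, an alpha catenin of heart and muscle, had a change of -1.24 ± 0.29 (adjusted p = 0.0322). The call of Snph was lost when any 1 library other than MIGF1RKO 4 was left out (highest adjusted p = 0.125), that of Cntnap2 was lost when any 1 library other than IGFRlox 3 was left out (highest adjusted p = 0.249) and that of Ctnna3 was lost when any 1 library other than MIGF1RKO 4 or IGFRlox 1 was left out (highest adjusted p = 0.122). Smaller falls that held whichever library was left out were those of Extl3, an enzyme of heparan sulfate synthesis (-0.57 ± 0.11), and Rhbdl3, a rhomboid-like protease (-1.10 ± 0.20). The other called-lower genes included Cdk19, a kinase of the Mediator complex (-1.07), Creg1, a lysosomal glycoprotein (-0.83), Rnf144b, a ubiquitin ligase (-0.76), Dnajb5, a cochaperone (-0.72), Cbfb, the partner of the Runx factors (-0.66), Rab12, a small GTPase (-0.59), Ece1, which makes endothelin (-0.56), and Tnpo2, a nuclear import receptor (-0.51). These calls were lost without any of 2 (Cdk19) to 8 (Dnajb5 and Tnpo2) of the 9 libraries. That of Creg1 was also lost with the compared groups only and with all 12 floxed libraries as control.

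The rest of the called-higher genes were likewise mixed. Ccdc141, a coiled-coil protein of muscle and neurons, had 14.3, 13.1, 17.0, 11.2 and 13.8 CPM in MIGF1RKO and 5.39, 4.76, 4.64 and 4.99 CPM in IGFRlox, a 2.80-fold rise (1.48 ± 0.32, adjusted p = 0.0225). That call was lost without MIGF1RKO 3, IGFRlox 2, IGFRlox 3 or IGFRlox 4 (highest adjusted p = 0.0769). Mfhas1, a leucine-rich protein, rose and kept its call whichever library was left out (29.4 ± 6.68 CPM against 11.5 ± 0.755 CPM, 1.35 ± 0.25, adjusted p = 0.00541). Ppp1r1a, an inhibitor of protein phosphatase 1, rose 2.44-fold (52.5 ± 22.9 CPM against 21.9 ± 11.4 CPM, adjusted p = 0.0452). Its groups overlapped, with 76.8, 73.3, 53.6, 29.5 and 29.0 CPM in MIGF1RKO 1 to 5 and 38.7, 18.8, 13.8 and 16.2 CPM in IGFRlox 1 to 4. The call of Ppp1r1a was lost when any 1 library other than MIGF1RKO 4, MIGF1RKO 5 or IGFRlox 1 was left out (highest adjusted p = 0.212). It was also lost with the compared groups only. Sh2d4a, an SH2 domain protein, had a change of 1.45 ± 0.30 (adjusted p = 0.0117), and Stk36, a kinase known from cilia, of 1.92 ± 0.45 (adjusted p = 0.0322). The call of Sh2d4a was lost without IGFRlox 2 (adjusted p = 0.0505), and that of Stk36 was lost when any 1 library other than MIGF1RKO 1 was left out (highest adjusted p = 0.123). Crocc, a protein of the ciliary rootlet (1.09), Ehd4, of endosome traffic (0.96), Osbpl1a, an oxysterol-binding protein (0.64), Arhgef17 (0.63) and Dennd2c, an exchange factor for Rab (1.13), also rose. These calls were lost without any of 3, 7, 1, 6 and 7 of the 9 libraries, in that order. The call of Crocc was also lost with the compared groups only and with all 12 floxed libraries as control. Mean Crocc was 2.92 CPM in IGFRlox, 4.49 to 5.95 CPM in the other floxed groups and 6.23 CPM in MIGF1RKO.

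**Figure D3:**
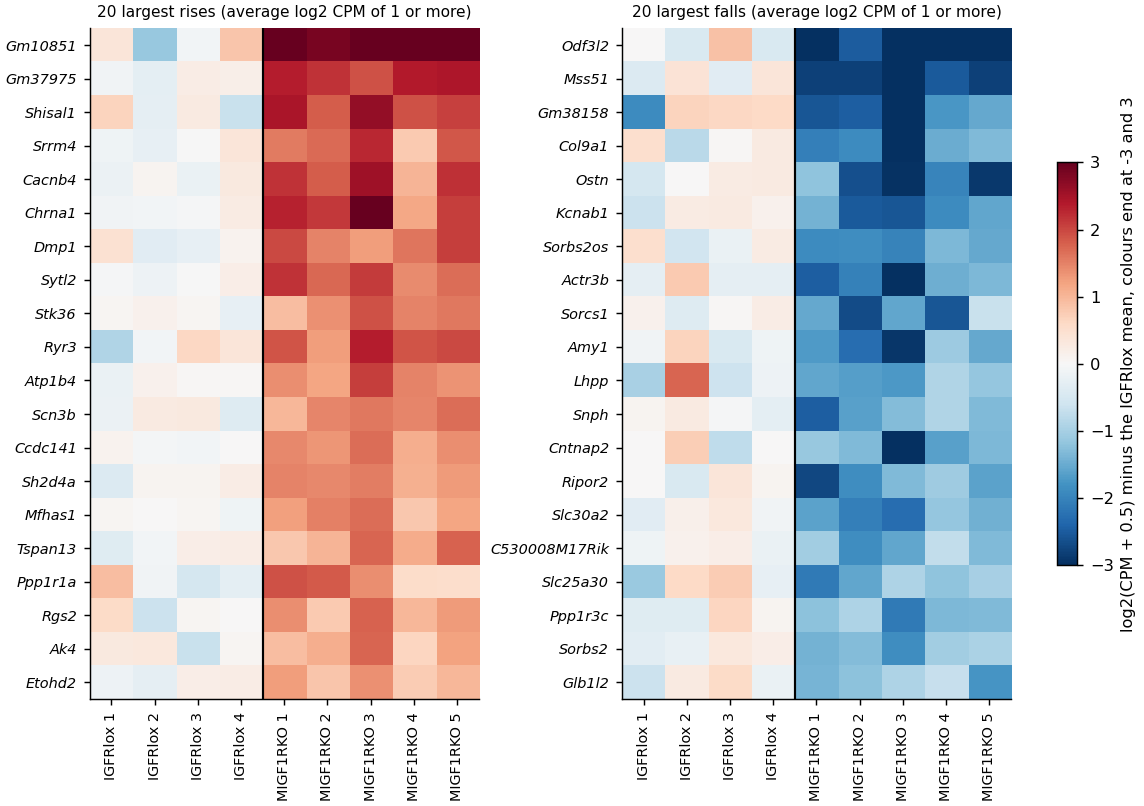
Heat map of log2(CPM + 0.5) minus the IGFRlox mean for the 20 largest rises (left) and the 20 largest falls (right) among called genes with an average log2 CPM of 1 or more, with 1 column per library. Most knockout columns are red on the left and blue on the right, and single control libraries stand out for Lhpp (IGFRlox 2, 105 CPM) and Gm38158 (IGFRlox 1, 1.5 CPM).

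Apart from A4gnt and 9130230L23Rik, which are described with the weakly expressed genes, the largest rises belonged to transcripts that lie inside another gene. Gm10851 (ENSMUSG00000102329, chromosome 2, 11521706 to 11530836, plus strand) had 8.42, 7.39, 8.79, 8.68 and 12.0 CPM in MIGF1RKO and 0.899, 0, 0.536 and 1.45 CPM in IGFRlox and was 12.1-fold higher (3.60 ± 0.51, adjusted p = 0.000217). Gm37975 (ENSMUSG00000102376, chromosome 2, 11532596 to 11534694, minus strand) had 5.62, 4.86, 3.94, 5.71 and 5.86 CPM against 0.599, 0.476, 0.893 and 0.831 CPM and was 7.05-fold higher (2.82 ± 0.47, adjusted p = 0.00134). Both kept their call in every setting tried. Both lie within Pfkfb3 (ENSMUSG00000026773, chromosome 2, 11471433 to 11554077, minus strand), which makes an activator of glycolysis. Pfkfb3 itself, named here because the calls lie in it, had 305, 474, 548, 1104 and 1085 CPM in MIGF1RKO and 264, 919, 124 and 224 CPM in IGFRlox, and with overlapping groups it was not called (0.88 ± 0.44, adjusted p = 0.503). Reads that fall on both genes cannot be assigned for certain from these counts. In all, 45 of the 84 called genes overlap another annotated gene, and 13 of them a tested gene on the other strand.

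Among weakly expressed genes, A4gnt, a glycosyltransferase, had 33 counts in MIGF1RKO and 0 in IGFRlox. Against a floor of 3 counts over the control group it was at least 10.2-fold higher. The transcript 9130230L23Rik had 42 counts against 1, a ratio of 38.9 with a 95% interval of 6.61 to 1570 that covers counting error only. Shisal1, a membrane protein (6.21 ± 1.66 CPM against 1.04 ± 0.61 CPM, 2.58 ± 0.52, adjusted p = 0.00894), Srrm4, a neuronal splicing factor (2.49), and Dmp1, a matrix protein of bone (2.22), also rose from low levels. The call of Shisal1 was lost without IGFRlox 2 or IGFRlox 4 (highest adjusted p = 0.0699), that of Srrm4 was lost when any 1 library other than MIGF1RKO 4 was left out (highest adjusted p = 0.196) and that of Dmp1 was lost when any 1 library other than MIGF1RKO 2, MIGF1RKO 3, MIGF1RKO 4 or IGFRlox 1 was left out (highest adjusted p = 0.135).

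Fiber type and protein turnover lists held no called gene. At 0.616% over all tested genes, that count of calls is no departure from the background. Of 18 slow fiber genes 11 had a change below 0 (median -0.38), and of 18 fast fiber genes 14 had one (median -0.22). In the edgeR test the unadjusted p was under 0.05 for 3 slow fiber genes that rose and 6 that fell. For fast fiber genes it was so for 0 and 2. Myh7, the slow myosin, had 229, 91.9, 151, 127 and 159.8 CPM in MIGF1RKO and 281, 171, 344 and 549 CPM in IGFRlox, with overlap (-1.15 ± 0.32, adjusted p = 0.103). Of 75 cytosolic ribosomal protein genes 65 had a change above 0, with a median of 0.24. None of the 34 proteasome genes was called (median -0.02), nor any of 20 myogenic regulators and satellite cell genes (median 0.04). None of 26 regulators of the oxidative program (median -0.10), 21 antioxidant enzymes (0.02) or 24 genes of the ATF4 stress response (-0.19) was called. Of the 84 called genes 14 (16.7%) belonged to any of the 47 lists, as did 6.47% of all tested genes, and the lists were chosen with earlier results of these data known.

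**Figure D4:**
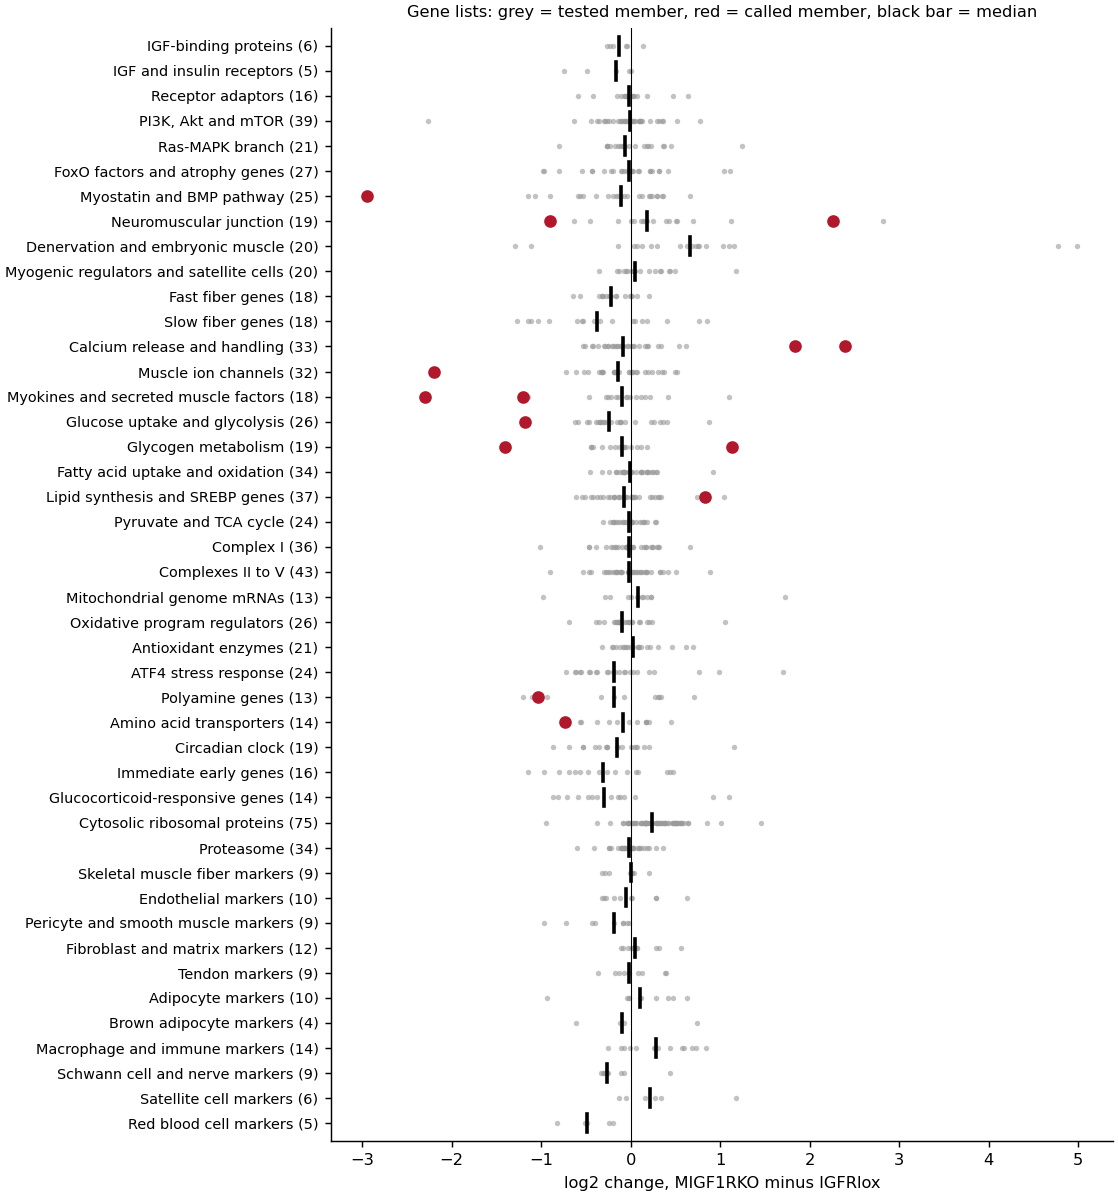
log2 change of MIGF1RKO minus IGFRlox (x axis) for the tested members of each gene list with at least 4 of them (y axis, number tested in brackets). Grey points are members, red points called members, and the black bar is the median. Most medians lie near 0, and the denervation list has the highest, at 0.66.

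None of 12 marker lists, that of muscle fibers included, had a called member. With 0.616% of all tested genes called, lists of this size would often hold none. Summed levels overlapped between the groups in each list. Adipocyte markers summed to 2228 to 3879 CPM in MIGF1RKO and 1984 to 3115 CPM in IGFRlox, with 6 of 10 changes above 0. Car3 alone had 97765 counts over the 9 libraries, against 528 for Adipoq, 432 for Plin1 and 192 for Lep. This sum therefore follows mainly Car3 and is not a measure of adipocyte content. Macrophage and immune markers summed to 420 to 697 CPM and 409 to 459 CPM, with 10 of 14 above 0. The T cell marker Cd3e had 17 counts over the 9 libraries. Of 6 neutrophil markers only Retnlg was tested, and it was at or below 0.303 CPM in every library. Markers of pericytes and smooth muscle summed to 1073 to 1311 CPM and 1156 to 1349 CPM, with all 9 changes below 0 and a median of -0.19. Endothelial markers summed to 419 to 503 CPM and 441 to 516 CPM, and fibroblast and matrix markers to 4432 to 6359 CPM and 3679 to 6884 CPM. Tendon markers summed to 611 to 972 CPM and 437 to 1245 CPM, satellite cell markers to 55.1 to 65.1 CPM and 56.3 to 62.9 CPM, brown adipocyte markers to 32.5 to 46.7 CPM and 23.8 to 56.4 CPM, and red blood cell markers to 30.4 to 68.3 CPM and 16.3 to 150 CPM. Single genes also led other sums. Abcc9 had 22622 counts among the pericyte and smooth muscle markers, with Rgs5 next at 11211. Ppara had 1063 among the brown adipocyte markers, with Dio2 next at 231. The part of these cells in the called genes was not tested.

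The muscle insulin receptor knockout MIRKO (4 libraries, with 3 IRlox controls) and the knockout of both receptors, MIGIRKO (6 libraries, with 3 IRIGFRlox controls), share no library with MIGF1RKO or IGFRlox, so they served as a reading of the called genes in other mice. In these, 170 genes (1.25%) and 4603 genes (33.7%) were called. The library labelled MIRKO 4 lay closest to MIGIRKO 3 (r = 0.981) and the library labelled MIGIRKO 6 closest to MIRKO 3 (r = 0.973). Mean Igf1r was 18.6 CPM in MIGIRKO and 18.6 CPM in IRIGFRlox, so a loss of its transcript is not visible there, and the group is named by its label.

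Of the 84 called genes, 77 had the same sign in MIRKO and 76 in MIGIRKO, against 57.7% and 59.4% of all tested genes. In MIRKO 21 of them were called too, all in the same direction, which is 25.0% of the MIGF1RKO calls and 12.4% of the MIRKO calls. With the libraries labelled MIRKO 4 and MIGIRKO 6 left out, MIRKO had 33 called genes, 6 of them among the 84, and 77 of the 84 had the same sign. In MIGIRKO 64 were called, 62 in the same direction, which is 76.2% of the MIGF1RKO calls and 1.39% of the MIGIRKO calls. Without those 2 libraries the 64 became 66. The called-higher genes had a median change of 1.31 in MIGF1RKO, 0.79 in MIRKO and 1.39 in MIGIRKO. The called-lower genes had -1.14, -0.59 and -1.25, and since they were chosen by their change in MIGF1RKO these medians carry no test. Without MIRKO 4 and MIGIRKO 6 the medians were 0.59 in MIRKO and 1.48 in MIGIRKO for the called-higher genes, and -0.55 and -1.21 for the called-lower genes. Mss51 had -2.95, -2.81 and -4.80 in the 3 knockouts in that order, and Ostn -2.30, -2.59 and -3.42. Without those 2 libraries Mss51 had -2.56 in MIRKO and -4.84 in MIGIRKO, and Ostn -2.50 and -3.74. Chrna1 had 2.26, 2.42 and 3.51, and its value in MIRKO was 1.24 (adjusted p = 0.177) in that fit, since MIRKO 4 had 354 CPM against 54.0 to 61.5 CPM in the other MIRKO libraries.

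The difference between the changes was tested gene by gene. MIGF1RKO differed from MIRKO in 3 genes (0.022%). Insr, the gene deleted in MIRKO, differed by 1.66 ± 0.22 (adjusted p = 0.000146). Map3k7cl, a small protein named after the kinase TAK1, rose in MIGF1RKO (1.05 ± 0.20) and had -0.67 in MIRKO, a difference of 1.73 ± 0.30 (adjusted p = 0.0117). Mean Map3k7cl was unequal in the controls, 13.1 CPM in IGFRlox and 23.5 CPM in IRlox, against 27.4 CPM in MIGF1RKO and 14.7 CPM in MIRKO. The difference for Map3k7cl therefore rests on the controls as well as on the knockouts. Cpt2, an enzyme of fatty acid oxidation, had 0.18 and -0.79, a difference of 0.97 ± 0.18 (adjusted p = 0.0288). The difference had an unadjusted p under 0.05 in 1166 genes, and at this number of libraries a missed threshold does not show that the knockouts act alike. With MIRKO 4 and MIGIRKO 6 left out 2 genes were called, and 1 was called without IRlox 1 or without MIRKO 3.

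MIGF1RKO differed from MIGIRKO in 1171 genes (8.58%), 670 with the higher change in MIGF1RKO and 501 with the lower. With library totals in place of TMM scaling these became 2167, of which 205 were higher and 1962 lower. The median difference of all genes moved from -0.02 to -0.43. The count was 585 without IRIGFRlox 1 and 612 without IRIGFRlox 3. Of the 84 called genes, 15 were among the 1171. In 7 of them the change had the same sign in both and was smaller in MIGF1RKO, as for Odf3l2 (-3.31 against -6.10), Actr3b (-2.05 against -4.19) and Slc30a2 (-1.71 against -3.67). Lrtm1, a leucine-rich membrane protein (ENSMUSG00000045776, chromosome 14, 29018208 to 29033645) that overlaps Cacna2d3 on the other strand, went in opposite directions. It had 128, 141, 144, 101 and 153 CPM in MIGF1RKO and 61.4, 70.9, 55.9 and 62.1 CPM in IGFRlox, a rise of 1.09 ± 0.20 (adjusted p = 0.00559), while in MIGIRKO it fell (-1.25), a difference of 2.34 ± 0.29 (adjusted p = 3.89e-05). Mpp3, a scaffold protein of cell membranes, likewise rose in MIGF1RKO (1.12) and fell in MIGIRKO (-0.74), a difference of 1.85 ± 0.35 (adjusted p = 0.00251). Lrtm1 kept its call in MIGF1RKO whichever library was left out, and that of Mpp3 was lost when any 1 library other than MIGF1RKO 4, MIGF1RKO 5 or IGFRlox 1 was left out (highest adjusted p = 0.107). Among genes not called in MIGF1RKO, the largest differences included Slc15a5, a peptide transporter (-1.78 against -6.89), Dach2, a transcription factor (-1.12 against -5.78), the amino acid transporter Slc38a1 (0.45 against 4.76) and the stress-responsive muscle protein Ankrd1 (0.23 against 4.35).

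**Figure D5:**
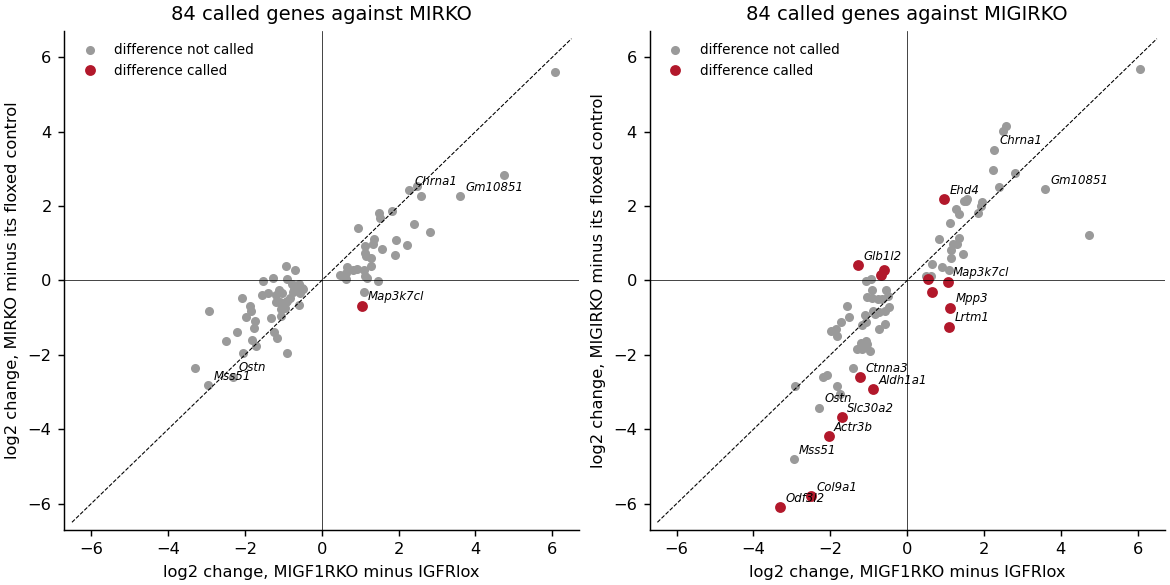
log2 change of the 84 called genes in MIGF1RKO (x axis) against their change in MIRKO (left) and in MIGIRKO (right), each relative to its own floxed controls, with the line of equal change dashed. Genes whose difference was called are red, 1 on the left and 15 on the right, and most points lie in the quadrants of equal sign.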

How the data were processed

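Total RNA of mixed quadriceps and gastrocnemius was sequenced in 34 libraries, 9 of them compared here. The deposited file holds raw read counts per Ensembl gene for 46071 genes, 1 column per library. Per the submitters' processing notes, reads were aligned with STAR to GRCm38.p4 and counted with featureCounts. Versions, annotation release and strand setting were not given in the sources used here. Symbols and coordinates are from GENCODE M21 (GRCm38), which matched 45229 IDs.

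Genes passing edgeR's filterByExpr over the 8 groups (13646) were scaled by TMM and fitted with 1 mean per group in all 34 libraries (R 4.3.3, edgeR 4.0.16, quasi-likelihood, robust). The SE is the change divided by the square root of F. CPM errors are SD. Alternatives used DESeq2 1.42.0 and limma 3.58.1, other filters and scalings, 6 runs of library numbers as a block, other sets of libraries, and each library left out. The fit was tested on simulated data. Figures used matplotlib 3.10.9. The comparison and the 47 lists of genes (34 pathway, 13 marker) were chosen with earlier results of these data known. Named genes are Igf1r, Insr and Nnt, called genes with a symbol (up to 20 per direction with values, at an average log2 CPM of at least 1), called members of each list or else up to 2 with the smallest p, and genes called in the difference tests, with up to 5 per direction of the largest. Other names are marked where they occur.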

Additional observations from a re-analysis of the deposited data

Results flagged for a closer look

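Of 172 groups of CPM values checked, 13 held a library far from the others of its group, 4 in MIGF1RKO and 9 in IGFRlox. Chance gives about 1 in 20. In the knockout group these were Npnt in MIGF1RKO 4 (11.4 CPM, the others 6.67 to 7.62), Odf3l2 in MIGF1RKO 2 (4.01, the others 2.12 to 2.64), Rab12 in MIGF1RKO 3 (199, the others 225 to 235) and Atp1b4 in MIGF1RKO 3 (40.0, the others 21.3 to 26.3). In IGFRlox 2, Creg1 was 222 CPM (the others 75.8 to 95), Lhpp 105 (15.6 to 27.8), Actr3b 97.3 (46.5 to 46.6) and Sobp 65.6 (70.0 to 70.7). In IGFRlox 1, Gm38158 was 1.5 CPM (the others 10.8 to 11.4), Scd2 64.7 (49.9 to 52.2) and 9130230L23Rik 0.30, which is 1 count (the others 0). In IGFRlox 4, Chrna1 was 24.9 CPM (the others 19.5 to 20.4) and Cbfb 157 (128 to 131). Without IGFRlox 2 the calls of Creg1, Lhpp, Actr3b and Sobp were lost, among 54 of the 84 called genes that lost theirs.

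By the edgeR test of the difference between knockouts, the change in MIGF1RKO was higher than in MIRKO for Map3k7cl (1.73, adjusted p = 0.0117), Insr (1.66, adjusted p = 0.000146) and Cpt2 (0.97, adjusted p = 0.0288). Against MIGIRKO, it was higher for Col9a1 (3.30), Odf3l2 (2.79), Lrtm1 (2.34), Actr3b (2.14), Aldh1a1 (2.03), Slc30a2 (1.97), Mpp3 (1.85), Ctnna3 (1.37), Map3k7cl (1.09), Rps6kc1 (0.96) and Sobp (0.51), with adjusted p from 3.89e-05 for Lrtm1 to 0.0411 for Sobp. It was lower for Glb1l2 (-1.69), Ehd4 (-1.23), Abcg2 (-0.89) and Pde8a (-0.83), with adjusted p from 0.00603 for Abcg2 to 0.0218 for Pde8a. Glb1l2, Abcg2 and Pde8a fell in MIGF1RKO and were not called in MIGIRKO, and Ehd4 was called higher in both.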

How the results depend on the processing

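The count of 84 called genes became 144 with the DESeq2 test, 176 with the compared groups only, 164 without the libraries labelled MIRKO 4 and MIGIRKO 6, 340 with all 12 floxed libraries as control and 15 (10 of them among the 84) with only the 3 runs that hold both groups, run as a block. It was 66 to 85 with DESeq2 size factors, limma-voom, no filter, a CPM filter, library totals and the 6 runs as a block. Leaving out 1 library gave 30 to 81. Of the 84 genes, 7 kept their call in all 20 settings (Gm10851, Gm37975, Mss51, Ostn, Ripor2, Slc30a2 and Tspan13), and 0 changed sign in any. The sign of Insr turned with all 12 floxed libraries (0.093). The 3 genes called for the difference from MIRKO became 15 with DESeq2 and 1 with library totals, with the 6 runs as a block and with the compared groups only, and 1 to 4 with a library left out. The 1171 for the difference from MIGIRKO became 668 without a filter and 2167 with library totals, and 585 (without IRIGFRlox 1) to 1463 (without MIGIRKO 6) with a library left out. No paired analysis was possible because no label ties a knockout library to a littermate. The fits with run as a block match libraries by library number, not by animal. Depth limits genes of a few CPM, where 1 count is a visible step.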

Other observations

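Lists of genes that follow time of day and handling held no called gene. Of 19 clock genes 12 had a change below 0 (median -0.15), of 16 immediate early genes 11 (median -0.31) and of 14 glucocorticoid-responsive genes 11 (median -0.30). Per1, a clock gene that glucocorticoids induce, had 89.1, 94.2, 66.3, 49.1 and 62.7 CPM in MIGF1RKO and 119.6, 128, 146 and 135 CPM in IGFRlox, with every knockout library below every control (-0.87 ± 0.33, adjusted p = 0.285). Jun, an immediate early transcription factor, had 51.6, 49.8, 56.0, 52.6 and 47.2 CPM and 70.4, 79.9, 84.8 and 70.7 CPM, again without overlap (-0.57 ± 0.18, adjusted p = 0.171). In the ATF4 stress response, Psat1, an enzyme of serine synthesis, had 20.4, 13.3, 26.7, 8.93 and 9.97 CPM in MIGF1RKO and 7.49, 3.81, 5.00 and 3.33 CPM in IGFRlox, all 5 above all 4, and was not called (1.71 ± 0.51, adjusted p = 0.139).

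IGFRlox 2 was the highest of the controls for several list members without a call. Cox7a2l, which joins respiratory complexes, had 105, 584, 145 and 243 CPM in IGFRlox 1 to 4, with IGFRlox 2 the highest, and 117, 113, 151, 149 and 189 CPM in MIGF1RKO (-0.91 ± 0.29, adjusted p = 0.183). Rps14, a ribosomal protein, had 218, 738, 350.4 and 418 CPM in IGFRlox and 166, 159, 221, 284 and 287 CPM in MIGF1RKO (-0.95 ± 0.30, adjusted p = 0.159), and IGFRlox 2 was again the highest.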
